A study of Mus musculus with 12 samples.

Results

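Genes of the motile cilium were followed in spinal cord RNA sequencing of 12 mice with and without deletion of Tardbp, the gene of the nuclear RNA-binding protein TDP-43, in cells that express a Gfap-driven Cre recombinase. The members are the genes whose symbol is Cfap, Dnah, Dnai, Dnaic or Tekt with a number, or begins with Rsph, together with Foxj1, Ccdc153, Tmem212, Rarres2, Dynlrb2 and Mia, with levels that average 0.5 TPM or more across the 12 mice. TPM measures transcripts relative to their length, so levels of different genes can be set side by side. Of 67 symbols that match, 58 met this minimum, out of 36121 genes in the table and 16751 genes at the same minimum. They comprise 29 Cfap genes, 10 Dnah genes, 2 Dnaic genes, 4 Tekt genes, 7 Rsph genes and the 6 genes named singly. The minimum used the level over all mice and no difference between groups. The symbols, Mia among them, were chosen with earlier results of these data known.

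All mice were C57BL6 and 3 months old, and RNA came from the spinal cord, 1 library per mouse. Control mice carried floxed Tardbp alleles (Tardbp-fl/fl) and no Cre. The cHet mice carried Gfap-Cre and Tardbp-fl/+, with 1 floxed allele, and the cKO mice carried Gfap-Cre and Tardbp-fl/fl. Floxed alleles were thus present in every group, and no group held Gfap-Cre without a floxed allele. Each group held 4 mice, 2 male and 2 female by their labels. 1 library went against its labelled sex. In control replicate 1, labelled male, the Y-linked genes Ddx3y, Eif2s3y, Kdm5d and Uty were at 0.288, 0.658, 0.946 and 0.600 TPM. In the other 5 mice labelled male they were at 30.5 to 36.5, 37.7 to 65.3, 9.77 to 10.8 and 9.91 to 12.7 TPM, and in the 6 labelled female at 0.336 to 1.15, 0.313 to 1.59, 1.05 to 1.26 and 0.515 to 0.897 TPM. Whether only its sex label or the identity of this library is in error cannot be told from these values, so results are also given without it, and sexes are named as labelled.

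Gfap marks astrocytes in the cord, and Gfap promoters can also be active in ependymal and other cells of radial glial origin, so the cells that lost the gene are not defined by the labels. In the whole cord, Tardbp was at 171 ± 6.73 TPM (SD over 4 mice) in control mice, 170.4 ± 8.64 in cHet mice and 148 ± 5.06 in cKO mice, lower in cKO than in control by limma (log2 difference -0.20, adjusted p = 0.0123). Tardbp stood highest of all 12 mice in the library labelled control replicate 1, at 181 TPM, and it was called lower in cKO without that library as well (-0.18, adjusted p = 0.0345).

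Motile cilia are beating projections built on an axoneme, a ring of doublet microtubules around a central pair. Outer and inner dynein arms on the doublets drive the beat, radial spokes pass signals from the central pair to the arms, and tektins and other inner proteins stiffen the doublets. In the spinal cord such cilia stand on the ependymal cells that line the central canal, where they move cerebrospinal fluid. The forkhead factor Foxj1 and factors of the RFX family switch on the genes of the motile axoneme, the RFX factors through the X-box, an inverted repeat of the half-site GTTGCC.

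Promoter windows show what the members share in sequence. RefSeq windows of 300 bases, 250 before and 50 after the annotated start, were at hand for 46 of the 58 members (GRCm38.p6). The 6 windows below belong to genes to which the results return, and to Cfap298, which holds the most half-sites. They are Mia (chr7:27181100-27181399, minus strand), the inner arm dynein genes Dnah7a (chr1:53706735-53707034, minus strand) and Dnah7b (chr1:46066603-46066902, plus strand), Dynlrb2 (chr8:116504765-116505064, plus strand), Ccdc153 (chr9:44240427-44240726, plus strand) and Cfap298 (chr16:90934800-90935099, minus strand). Each is written 5′ to 3′ in the direction of transcription, and capitals mark the half-site GTTGCC in either orientation and the inverted repeat GTTGCNNNGCAAC.
Mia: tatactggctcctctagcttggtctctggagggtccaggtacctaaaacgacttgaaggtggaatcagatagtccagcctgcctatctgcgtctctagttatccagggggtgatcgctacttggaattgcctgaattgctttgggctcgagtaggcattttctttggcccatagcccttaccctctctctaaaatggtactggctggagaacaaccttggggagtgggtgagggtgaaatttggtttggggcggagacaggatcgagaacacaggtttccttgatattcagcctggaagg
Dnah7a: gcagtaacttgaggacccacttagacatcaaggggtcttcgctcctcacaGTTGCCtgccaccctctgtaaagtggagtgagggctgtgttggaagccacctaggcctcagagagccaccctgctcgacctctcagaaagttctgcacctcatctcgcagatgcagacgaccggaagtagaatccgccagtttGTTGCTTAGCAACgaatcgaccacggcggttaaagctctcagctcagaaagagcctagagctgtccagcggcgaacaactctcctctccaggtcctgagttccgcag
Dnah7b: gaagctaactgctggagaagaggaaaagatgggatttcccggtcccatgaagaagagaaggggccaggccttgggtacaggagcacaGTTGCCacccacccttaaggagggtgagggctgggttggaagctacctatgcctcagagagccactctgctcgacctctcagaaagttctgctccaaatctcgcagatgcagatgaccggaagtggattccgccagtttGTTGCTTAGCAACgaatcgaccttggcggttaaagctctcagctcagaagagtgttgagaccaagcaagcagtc
Dynlrb2: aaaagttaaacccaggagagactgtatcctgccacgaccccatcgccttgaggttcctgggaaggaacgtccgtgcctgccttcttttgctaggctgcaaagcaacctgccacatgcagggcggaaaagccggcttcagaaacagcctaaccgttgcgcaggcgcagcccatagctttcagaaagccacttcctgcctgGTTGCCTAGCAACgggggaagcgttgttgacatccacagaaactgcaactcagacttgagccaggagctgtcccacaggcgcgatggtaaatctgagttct
Ccdc153: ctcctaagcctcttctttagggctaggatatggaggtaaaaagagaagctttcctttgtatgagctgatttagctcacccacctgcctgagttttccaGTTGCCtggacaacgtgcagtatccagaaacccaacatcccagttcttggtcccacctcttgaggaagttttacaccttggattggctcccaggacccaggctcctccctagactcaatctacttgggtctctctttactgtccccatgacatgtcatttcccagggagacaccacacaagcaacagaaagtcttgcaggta
Cfap298: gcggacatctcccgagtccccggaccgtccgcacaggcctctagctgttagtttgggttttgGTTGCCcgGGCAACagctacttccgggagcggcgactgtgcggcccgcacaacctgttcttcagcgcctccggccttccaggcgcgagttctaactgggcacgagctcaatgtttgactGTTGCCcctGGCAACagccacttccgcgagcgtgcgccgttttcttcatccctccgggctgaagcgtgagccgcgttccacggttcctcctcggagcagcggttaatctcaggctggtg

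The half-site GTTGCC, searched on both strands, lay in the window of 19 of 46 members, 41.3%, beside 15.1% of 11859 genes at the same minimum level and 14.1% of all 27025 genes with a window. Some members have several windows, which overlap in some of them, 53 over the 46 members. Counted once per place these held 29 half-sites, 17 of them within 100 bases before a start. Cfap298, a factor of dynein arm assembly, held 4 half-sites. The longer inverted repeat GTTGCNNNGCAAC reads the same on both strands and was looked for after the Dnah7a and Dnah7b windows had been seen. It lay in a window of 8 of 46 members, 17.4%, beside 0.329% of genes at the same level and 0.252% of all genes. Its holders were Dnah6, Dnah7a, Dnah7b, Dnaic2, Dynlrb2, Rsph3b, Tekt2 and Tekt4, and in the Dnah7a window it began 57 bases before the start. Dnah7a and Dnah7b are near copies whose windows match at 214 bases in an alignment, so these are not independent finds. In Dynlrb2 the repeat overlaps the half-site. The Mia window held neither motif. The forkhead motif GTAAACA lay in a window of 6.52% of the 46 members and of 3.12% of genes at the same level. The stricter X-box of half-sites GTTNCC with a spacer of 2 bases lay in a window of 1 member, Cfap298, or 2.17% of members beside 0.632% of genes at the same level. Median GC content was 55.3% in member windows and 60.0% in those of the genes tested, and no test was made of these shares.

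The members were mostly genes of low level. Their median mean was 3.75 TPM, beside 14.5 TPM over the 16751 genes tested. Cfap36, whose product binds the small GTPase ARL3, stood highest at 124 TPM, followed by Cfap298 at 41.8 and Cfap20, a protein of the axonemal microtubules, at 33.6. Tekt5 reached 22.8 TPM, Foxj1 22.0, Rsph3a 21.2 and Ccdc153 19.6. By family the median of the members' means was 3.38 TPM for Cfap, 1.91 for Dnah, 5.27 for Dnaic, 3.03 for Tekt and 7.90 for Rsph. Just inside the minimum were Dnah6 at 0.546 TPM, Cfap57 at 0.679 and Cfap77 at 0.739, and just outside it were the dynein heavy chains Dnah5 at 0.474, Dnah3 at 0.409 and Dnah7c at 0.369. The remaining genes below the minimum were Cfap221, Dnah12, Cfap58, Dnah8, Rsph6a and Tekt3.

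Markers of ependymal cells that the rule did not use were read beside the members. Of 25 further ependymal marker genes in the table, 22 were at 0.5 TPM or more, beside 16751 of all 36121 genes. Tppp3 and Nnat, at 411 and 135 TPM in control mice, made up most of the list's summed 827 TPM there. The list holds genes that other cells express as well, such as Nnat, so this count cannot show which cells the members come from. Of 10 choroid plexus markers, which cover the other multiciliated epithelium of the nervous system, 6 were at 0.5 TPM or more and Aqp1, Kcne2, Kcnj13 and Otx2 were below it. The summed level of the 10 was 359 to 396 TPM in control mice, of which Enpp2, made by oligodendrocytes as well, gave 370.2 TPM on average. Not every member is a gene of motile cilia alone. A list of Cfap genes taken to be of wide expression holds 6 members, but these data do not show that breadth. Rarres2 encodes the secreted chemoattractant chemerin, and Mia a small secreted protein first known from melanoma and cartilage. Neither product is a part of the cilium. In whole-cord RNA, fewer cells of a type and less RNA per cell cannot be told apart.

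The first question was whether the motile cilium genes differ in cKO cord. In cKO against control, Mia rose, and none of the other 57 members was called in either direction. The median log2 difference of the 58 members was 0.08, beside 0.01 over all genes tested. By limma at an adjusted p under 0.05, 1 of 58 members was higher, where 5.16% of all genes were, and 0 of 58 were lower, where 2.84% of all genes were (8.01% in both directions). Without control replicate 1, whose sex label is in doubt, 5.87% of all genes were called in both directions, and of the members Mia was higher and Dnaic1 and Cfap97d2 lower. Without adjustment, with all 12 mice, 8 members were at p under 0.05, beside 21.5% of all genes, 5 of them higher and 3 lower. The 95% interval lay within 2-fold in either direction for 53 of 58 members and within 1.5-fold for 36. Of the 58 members 39 lay above 0, 67.2% beside 53.4% of all genes, and with every library scaled to equal totals 31 did, 53.4% beside 28.5% of all genes. The exceptions at 2-fold were Cfap97d1, Tekt4, Dynlrb2, Cfap157 and Mia. The smallest adjusted p among uncalled members was 0.0764, for Dnah7a. The authors' deposited tables hold 57 of the members and put 2 of them, Mia and Dnah7b, at a likelihood ratio q under 0.05, where 9.42% of genes were, and 3, with Tekt5 added, at a Wald q under 0.05, where 10.2% were. For cKO against cHet those counts were 1, Mia, where 3.78% of genes were, and 2, Mia and Dnah7b, where 4.94% were. Of the members, 38 overlap another annotated gene, 17 of them a coding gene, counted over whole gene spans on either strand. Their values carry uncertainty where transcripts share sequence, and the share of overlaps over all genes was not computed.

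Mia (ENSMUSG00000089661, chromosome 7, 27179742 to 27181157, minus strand, GRCm38) was measured at 11.5, 15.3, 9.13 and 13 TPM in the control mice. The cHet mice held 13.5, 14.3, 11.4 and 16.6 TPM, and the cKO mice 21.6, 25.6, 25.4 and 25.1 TPM. Every cKO mouse thus lay above every control and every cHet mouse, while the control and cHet mice overlapped. The means were 12.2 ± 2.60 TPM (SD, n = 4 mice) in control mice, 14 ± 2.13 in cHet mice and 24.4 ± 1.88 in cKO mice. The log2 difference of cKO from control was 0.99 ± 0.14 (SE, 95% interval 0.68 to 1.30), with a limma adjusted p of 0.00126. A two-sided exact permutation test over 70 assignments of the mice gave p = 0.0286, the smallest it can give. Without control replicate 1 it was 0.97 (adjusted p = 0.00539). Against cHet the difference was 0.80 ± 0.14 (limma adjusted p = 0.00700), and cHet differed from control by 0.19 (adjusted p = 0.673). In the authors' deposited tables the likelihood ratio q-value of Mia was 0.00179 for cKO against control and 0.00616 for cKO against cHet.

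The gene that overlaps Mia and its neighbour were read beside it. The transcripts of Mia overlap those of Gm21983 on the same strand. Of the distinct 31-base words of Mia transcripts, 37.2% occur in Gm21983, which shares 75.3% of its own words with the neighbour Rab4b. Gm21983 was listed at 0 in every mouse but control replicate 4, where it was at 0.215 TPM, so the sum of both genes was 12.3 ± 2.62 TPM in control and 24.4 ± 1.88 in cKO. Rab4b shares none of these words with Mia and averaged 124 TPM in control mice and 121 TPM in cKO mice (log2 difference -0.05, adjusted p = 0.599).

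Markers of other cell types were read beside Mia, and each list held genes called higher and genes called lower. Of all genes tested, 5.16% were called higher in cKO than in control and 2.84% lower. Of 11 tested meningeal fibroblast markers, 3 rose in cKO against control, namely Igfbp2, an insulin-like growth factor binding protein (33.1 to 70.5 TPM, log2 difference 1.08), and the matrix proteoglycans Dcn (0.59) and Fmod (0.58), and Aebp1, a matrix-associated protein, fell by 0.69 (limma adjusted p at most 0.00495). The summed level of the 12 listed genes was 75.2 to 86.3 TPM in control, 79.2 to 87.6 in cHet and 111 to 128 in cKO, and Igfbp2 alone made up most of that gap. The 11 tested genes had a median log2 difference of -0.01 from control, with 5 of 11 above 0. These 4 calls were kept without control replicate 1 (adjusted p at most 0.0157). Of 8 tested Schwann cell markers, Fxyd1 rose (0.28) and Pmp22 fell by 0.15 (not called without control replicate 1, adjusted p = 0.0589), with a summed level of 755 to 785 TPM in control and 720 to 771 in cKO. Nearly all of that sum came from Mal, Fxyd1 and Pmp22, at 361, 270 and 128 TPM on average in control mice. Egr2 and Prx of that list were below 0.5 TPM, so this list cannot show whether its values come from Schwann cells. Of 12 astrocyte markers, 4 rose and 2 fell, and Gfap averaged 1175 TPM in control mice and 1391 in cKO mice (log2 difference 0.24, adjusted p = 0.0422, and 0.0710 without control replicate 1). The part of these cells in the rise of Mia was not tested.

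**Figure D1:**
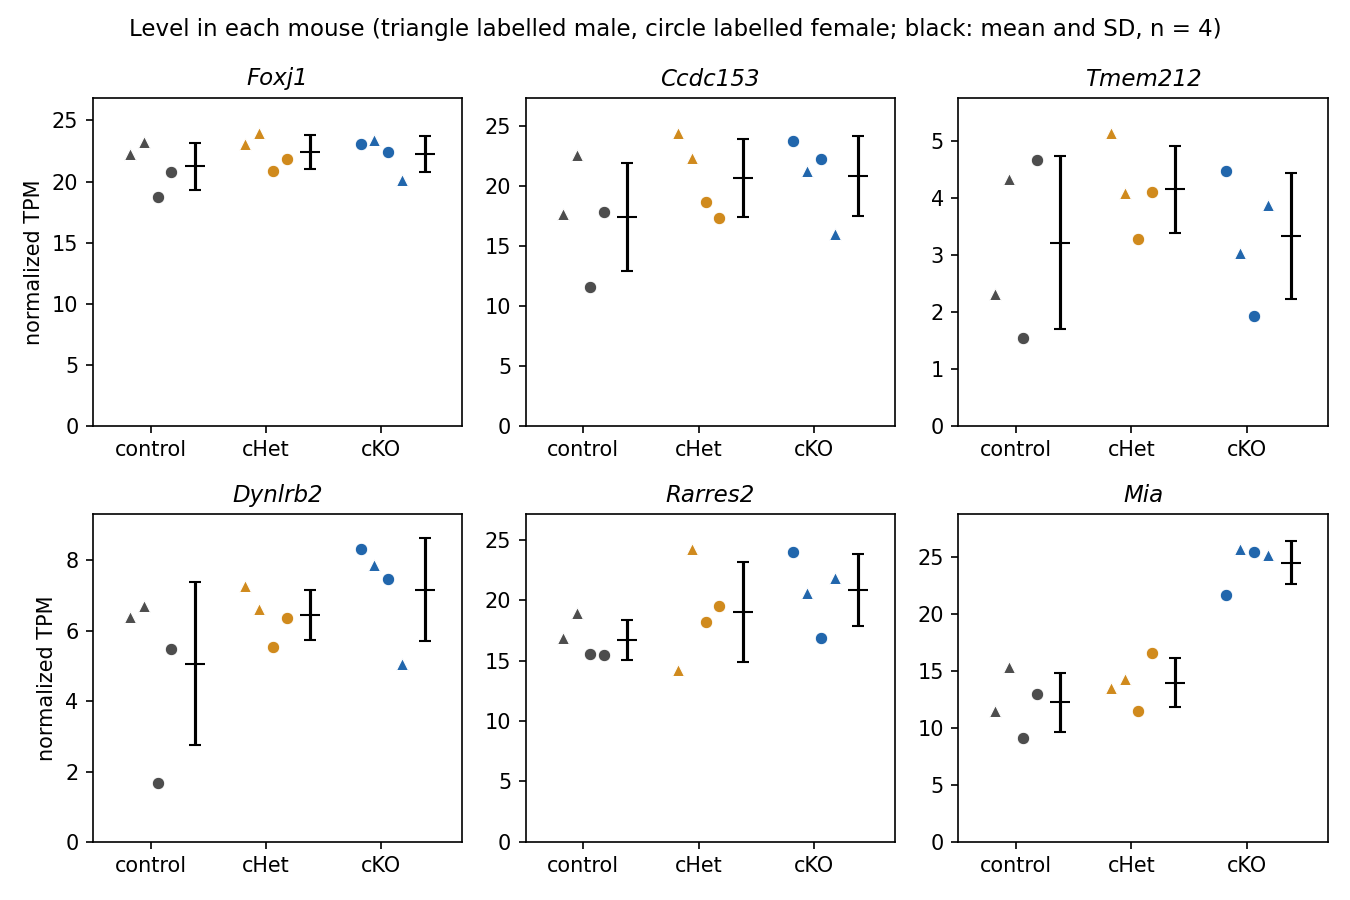
Normalized TPM (vertical axes) of the 6 singly named genes in each of the 12 mice by group, with triangles for mice labelled male, circles for mice labelled female and black bars for the mean and SD of 4 mice. Mia lies between 21.6 and 25.6 TPM in cKO, above all other mice, while the groups overlap for the other genes shown, and Dynlrb2 has a single low control mouse at 1.69 TPM.

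The remaining singly named genes did not separate the groups. Foxj1, the forkhead factor that switches on motile cilium genes, was at 22.3, 23.2, 18.7 and 20.7 TPM in control mice, 23.1, 24.0, 20.8 and 21.8 in cHet mice and 23.1, 23.4, 22.4 and 20.1 in cKO mice. The groups overlapped throughout, and the log2 difference of cKO from control was 0.07 (95% interval -0.09 to 0.22, adjusted p = 0.654). Ccdc153, a coiled-coil protein used as an ependymal marker, was at 17.7, 22.6, 11.6 and 17.8 TPM in control mice, 24.4, 22.3, 18.6 and 17.3 in cHet mice and 23.7, 21.2, 22.2 and 16.0 in cKO mice. The control mice spread more widely than the others, from the third mouse at the bottom to the second near the top, and the difference of cKO from control was 0.27 (95% interval -0.13 to 0.68, adjusted p = 0.441). Tmem212, a membrane protein used in the same way, was at 3.21 ± 1.52 TPM in control mice, 4.15 ± 0.761 in cHet mice and 3.33 ± 1.11 in cKO mice.

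Dynlrb2, a dynein light chain of the roadblock type, was at 6.40, 6.69, 1.69 and 5.48 TPM in control mice, 7.26, 6.61, 5.53 and 6.36 in cHet mice and 8.32, 7.87, 7.47 and 5.04 in cKO mice. Control replicate 3 lay far under all other mice, and the difference of cKO from control was 0.58 with a 95% interval of -0.11 to 1.27 (adjusted p = 0.327). Rarres2 was at 16.7 ± 1.64 TPM in control mice, 19.0 ± 4.11 in cHet mice and 20.8 ± 2.99 in cKO mice, with overlapping groups and a difference of cKO from control of 0.30 (adjusted p = 0.25).

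Several dynein arm genes were lower in the cKO mean without a call. Dnah7a, a heavy chain of the inner arms, was at 8.75, 9.09, 8.94 and 10.3 TPM in control mice, 9.10, 9.07, 8.26 and 8.43 in cHet mice and 7.10, 8.25, 8.55 and 6.46 in cKO mice. All cKO mice lay under all control mice, and the log2 difference was -0.28 ± 0.09 (SE, limma adjusted p = 0.0764). Dnah7a was called lower when libraries were scaled to equal totals (adjusted p = 0.0218). At that scaling the median of all genes was -0.07 and 1568 of 16751 genes were called lower. Dnah7a was also called without cKO replicate 3 (adjusted p = 0.0483), and without control replicate 1 its adjusted p was 0.0960. Its near copy Dnah7b was at 3.4, 4.19, 2.64 and 3.24 TPM in control mice, 3.57, 4.05, 2.81 and 3.13 in cHet mice and 1.76, 3.03, 1.54 and 3.07 in cKO mice. Both cKO mice labelled female were the lowest of all 12 mice, and both labelled male overlapped the other groups. The difference was -0.47 ± 0.20 from control (adjusted p = 0.186) and -0.48 from cHet (adjusted p = 0.225). With labelled sex as a covariate Dnah7b was called lower in both comparisons (adjusted p = 0.0344 and 0.0456). It was called there also when control replicate 1 was left out, a fit chosen after seeing the data (-0.54, adjusted p = 0.0323, and -0.48, adjusted p = 0.0443). Without the covariate and without that library its adjusted p against control was 0.275, and the authors' deposited table gave it a likelihood ratio q of 0.0399 and a Wald q of 0.0244 for cKO against control.

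Dnah7a, Dnah7b and Dnah7c share sequence, and reads can be split between them. Of the distinct 31-base words of Dnah7a transcripts 54.2% occur in the other copies, and of those of Dnah7b 38.9%, so single values are uncertain. Their summed level was 12.6, 14, 11.9 and 13.9 TPM in control mice, 13, 13.8, 11.5 and 11.9 in cHet mice and 8.96, 11.5, 10.4 and 9.87 in cKO mice. The cKO mice lay under all control mice in this sum, which was formed after the values of the single genes were seen and has no test.

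Dnaic1, an intermediate chain of the outer arms, was at 5.51, 7.76, 7.49 and 7.43 TPM in control mice, 8.17, 6.40, 5.99 and 6.48 in cHet mice and 5.06, 6.16, 5.28 and 4.55 in cKO mice. Control replicate 1, the library with the doubtful sex label, lay among the cKO mice, and the other control mice lay above them. The difference of cKO from control was -0.38 ± 0.12 (SE, adjusted p = 0.0870), and without control replicate 1 it was -0.49 with an adjusted p of 0.0293. With equal totals it was called as well (adjusted p = 0.0402), where the median of all genes was -0.07 and 1568 genes were called lower. Dnaic1 overlaps the coding gene Enho on the opposite strand, and the strand use of the counting is not given in the sources used here. Dnaic2, the partner chain, was at 4.27 ± 0.625 TPM in control mice and 3.92 ± 0.657 in cKO mice (log2 difference -0.11, adjusted p = 0.769). Dnah17, an outer arm heavy chain known from sperm, was at 2.49 to 2.93 TPM in control and 1.81 to 2.44 in cKO, without overlap, and was not called (-0.26, adjusted p = 0.379). The other heavy chains, Dnah1, Dnah2, Dnah6, Dnah9, Dnah10, Dnah11 and Dnah14, had differences of -0.05 to 0.24 and overlapping groups.

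**Figure D2:**
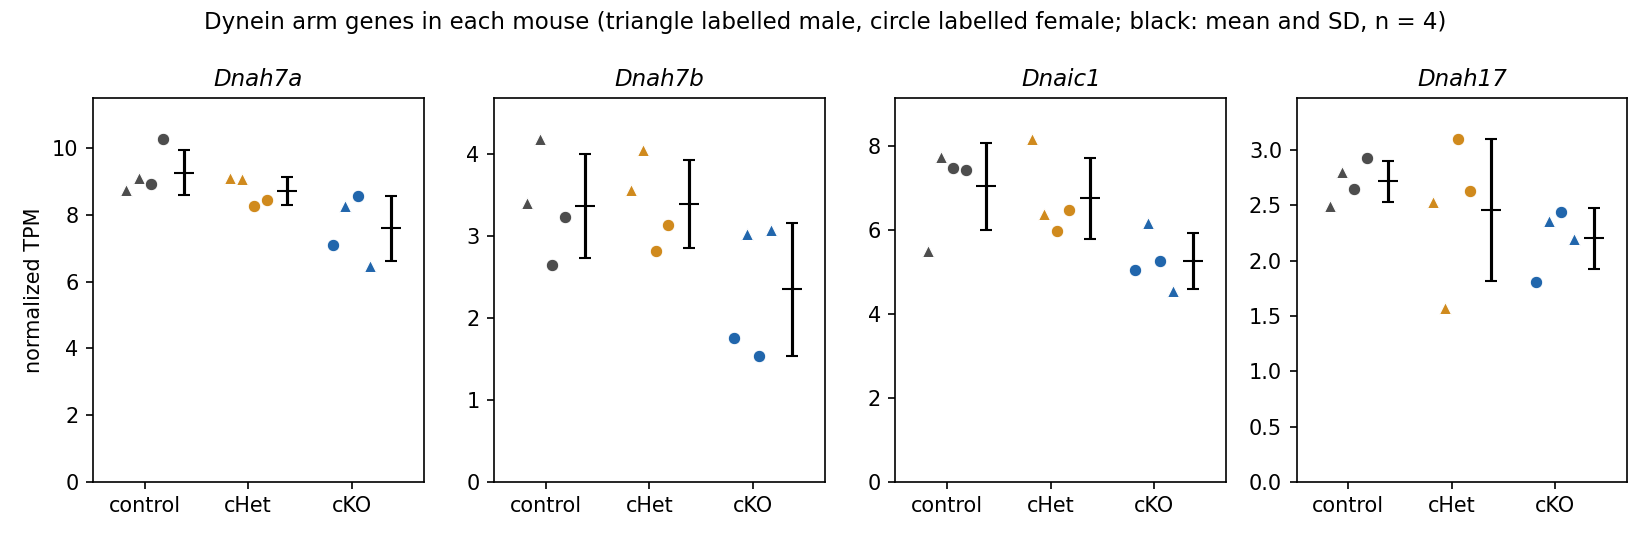
Normalized TPM (vertical axes) of Dnah7a, Dnah7b, Dnaic1 and Dnah17 in each mouse by group, with triangles for mice labelled male, circles for mice labelled female and black bars for the mean and SD of 4 mice. Only Dnah7a and Dnah17 of these 4 have cKO mice that all lie under the control mice, and in Dnah7b the cKO mice labelled female are at 1.76 and 1.54 TPM.

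Counts of members whose groups did not overlap were small. In cKO against control these were 2 members higher, Mia and Cfap70, where 9.79% of all genes were, and 2 lower, Dnah7a and Dnah17, where 6.23% were. Cfap70, a protein of the outer arm base, was at 1.57, 1.30, 0.640 and 1.49 TPM in control mice, 1.17, 0.775, 1.47 and 1.17 in cHet mice and 2.13, 1.96, 1.62 and 2.02 in cKO mice. All cKO mice lay above all others, and the log2 difference was 0.51 ± 0.19 from control (adjusted p = 0.146) and 0.58 from cHet (adjusted p = 0.136). Without control replicate 3 the adjusted p against cHet was 0.0487. Cfap206, a radial spoke protein, was at 1.02 ± 0.148 TPM in control mice, 1.60 ± 0.449 in cHet mice and 1.68 ± 0.379 in cKO mice (0.51 for cKO against control, adjusted p = 0.115), and with labelled sex as a covariate its adjusted p was 0.0456, or 0.0993 without control replicate 1 as well.

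No member of the Tekt or Rsph families was called. Tekt5, the tektin with the highest level here, was at 21.8 ± 1.65 TPM in control mice, 21.8 ± 1.84 in cHet mice and 24.9 ± 1.52 in cKO mice (0.19, adjusted p = 0.144), and only the Wald test of the authors' deposited table put it under 0.05 (q = 0.0275). Tekt1, Tekt2 and Tekt4 had differences of 0.41, -0.27 and 0.28 with intervals that reach 0. Of the radial spoke genes, Rsph3a and Rsph3b, which encode the spoke stalk protein, share 59.4% and 58.5% of their 31-base words, and their sum was 40.7 ± 2.61 TPM in control mice, 40.2 ± 2.22 in cHet mice and 40.4 ± 3.43 in cKO mice. Rsph9 of the spoke head was at 12.9 ± 2.19 TPM in control mice and 12.3 ± 2.43 in cKO mice. The remaining Rsph genes, Rsph1, Rsph4a, Rsph10b and Rsph14, had differences of -0.25 to 0.21.

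The 29 Cfap genes had differences of cKO from control between -0.23, for Cfap97d2, and 0.51, for Cfap206. The 3 Cfap genes with the highest levels were not called. Cfap36 was at 119 ± 5.32 TPM in control mice and 124 ± 4.17 in cKO mice, Cfap298 at 41.6 ± 4.14 and 41.9 ± 1.96, and Cfap20 at 32.5 ± 1.24 and 34.9 ± 4.22, with adjusted p of 0.382, 0.926 and 0.535. The within-group SD on the log2 scale was 0.05 for Cfap36, 0.09 for Cfap300, a factor of dynein assembly, and 0.11 for Foxj1. Without cKO replicate 3, Cfap300 was called higher in cKO than in control (0.27, adjusted p = 0.0277). The within-group SD was 0.71 for Cfap157, a basal body protein, 0.55 for Tekt4, 0.51 for Dynlrb2 and 1.13 for Cfap97d1. Cfap97d1 was listed at 0 in control replicate 2 and cKO replicate 2. The intervals of these genes are wide accordingly.

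**Figure D3:**
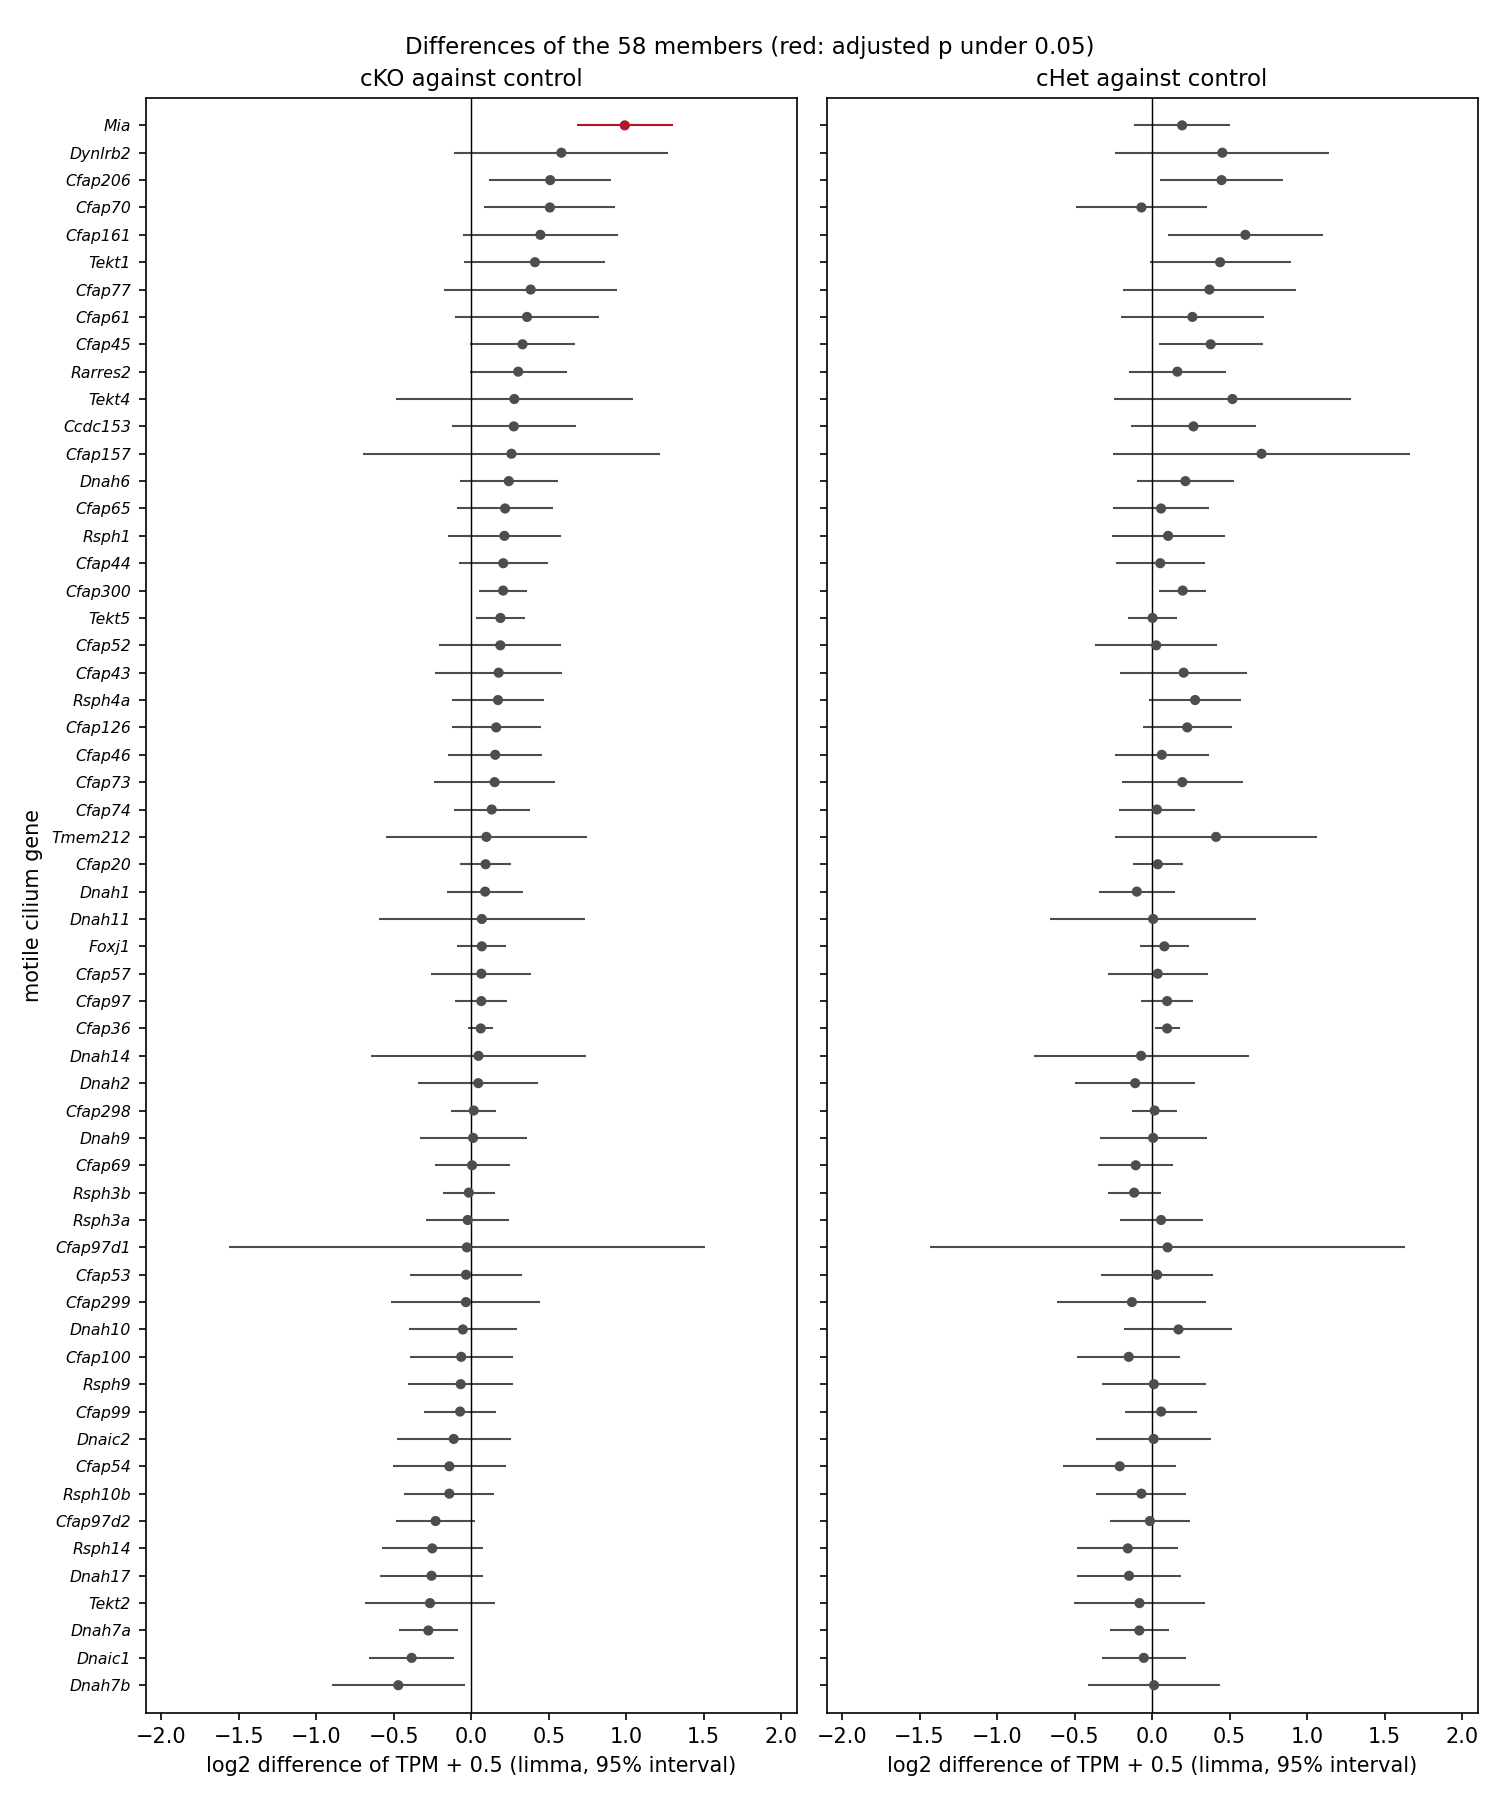
Log2 difference of TPM + 0.5 (horizontal axes) for each of the 58 members, with 95% intervals from limma, for cKO against control and cHet against control, in the order of the cKO differences. Mia in cKO against control, at 0.99, is the only member past an adjusted p of 0.05 (red), and the widest interval is that of Cfap97d1.

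In cHet against control no member was called, and 1 of 16751 genes was (0.00597% of genes). The cHet mice differ from control mice both in Gfap-Cre and in the number of floxed alleles, so these cannot be told apart. The median difference of the members was 0.06, beside 0.01 over all genes, and 42 of 58 were above 0, or 72.4%, beside 54.1% of all genes, and with equal totals 31 were, 53.4% beside 34.6% of all genes. There 5 members were at an unadjusted p under 0.05, all higher, beside 10.8% of all genes. These were Cfap161, Cfap36, Cfap45, Cfap206 and Cfap300, with the smallest adjusted p at 0.348. Cfap300 was at 7.51, 8.45, 8.04 and 7.83 TPM in control and 8.83, 9.40, 9.27 and 9.29 in cHet. It was the 1 member whose groups did not overlap, where 3.86% of all genes were higher without overlap, and 0 members were lower, where 2.04% were. The largest differences were those of Cfap157 (0.71), Cfap161, a protein inside the doublets (0.60), and Tekt4 (0.52), and the lowest was that of Cfap54 of the central pair (-0.21). Both Cre groups were compared with the same 4 control mice, so the direction of the 2 comparisons is not independent.

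In cKO against cHet, Mia was again the 1 member called, where 4.33% of all genes were (2.08% higher). The median difference of the members was 0.00, and 29 of 58 were above 0. Groups did not overlap for Mia and Cfap70, higher, where 5.77% of genes were, and for Cfap97d2, lower, where 5.06% were. Cfap97d2 was at 6.26 ± 0.436 TPM in cHet and 5.32 ± 0.343 in cKO (-0.22, adjusted p = 0.392), and against control it was called lower without control replicate 1 (-0.36, adjusted p = 0.0281).

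Low and high values of the members gathered in some mice. Control replicate 3, labelled female, held the lowest value of its group for 31 of 58 members, 53.4%, beside 26.9% of all genes, and control replicate 2, labelled male, held the highest for 30, 51.7% beside 21.5%. The lowest of their group were also 25 members in cHet replicate 3, 43.1% beside 22.0%, and 23 members in cKO replicate 4, 39.7% beside 26.7%. The mean log2 deviation of the members was -0.07 ± 0.13 (SD, n = 4) in control mice, 0.04 ± 0.06 in cHet mice and 0.03 ± 0.06 in cKO mice, and the summed level was 518 ± 30.0, 546 ± 23.0 and 556 ± 13.5 TPM. The deposited totals of all genes also differed by group, with means of 967165, 1002460 and 1031666 TPM, and per equal total the members' sum was 536 ± 31.3, 545 ± 24.3 and 539 ± 18.9 TPM. Without control replicate 3 the members' median difference of cKO from control was 0.04, and without control replicate 2 it was 0.16. The genes low in control replicate 3 include Dynlrb2, Ccdc153, Tekt1, Cfap157 and Rsph1, and these are not replicates of each other since they come from the same library.

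**Figure D4:**
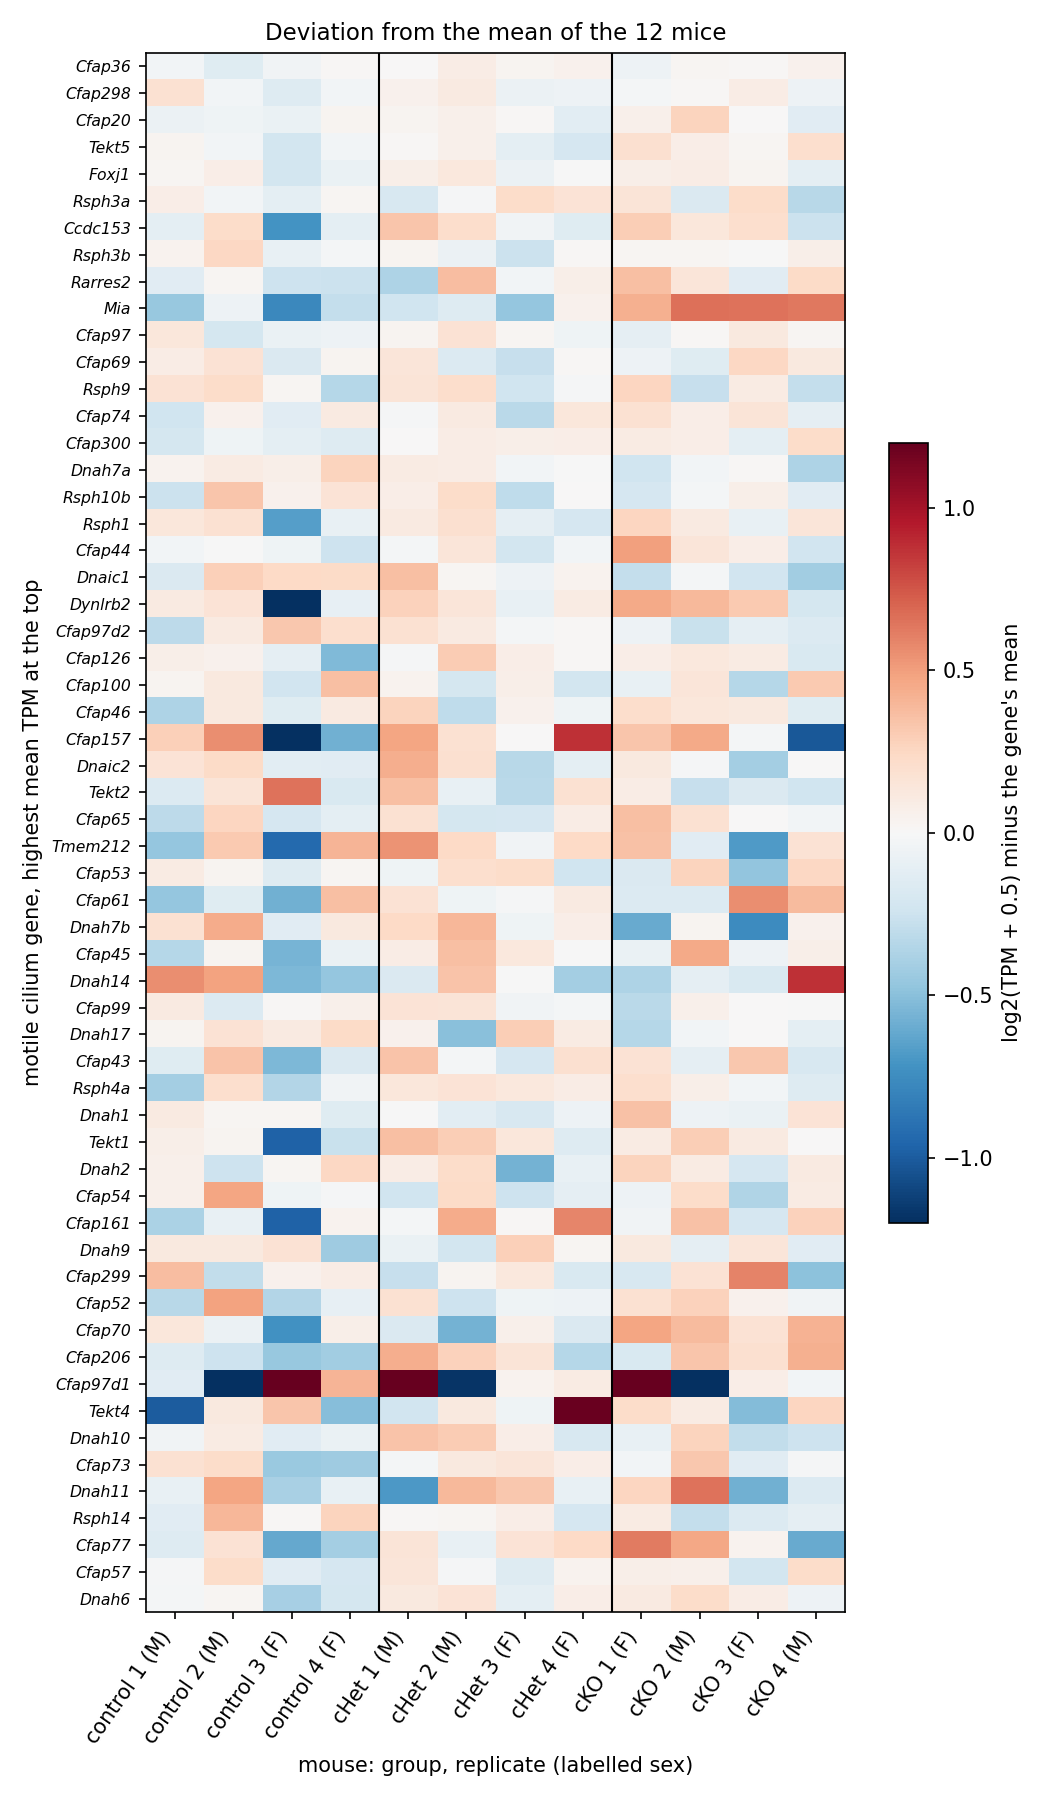
Log2(TPM + 0.5) of each member minus its mean over the 12 mice (colour, from -1.2 in blue to 1.2 in red) by mouse, with group, replicate and labelled sex under each column and genes in the order of mean TPM. Mia is red in the cKO mice, and the third control mouse is blue for many genes while other genes there, such as Tekt2, are red.

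**Figure D5:**
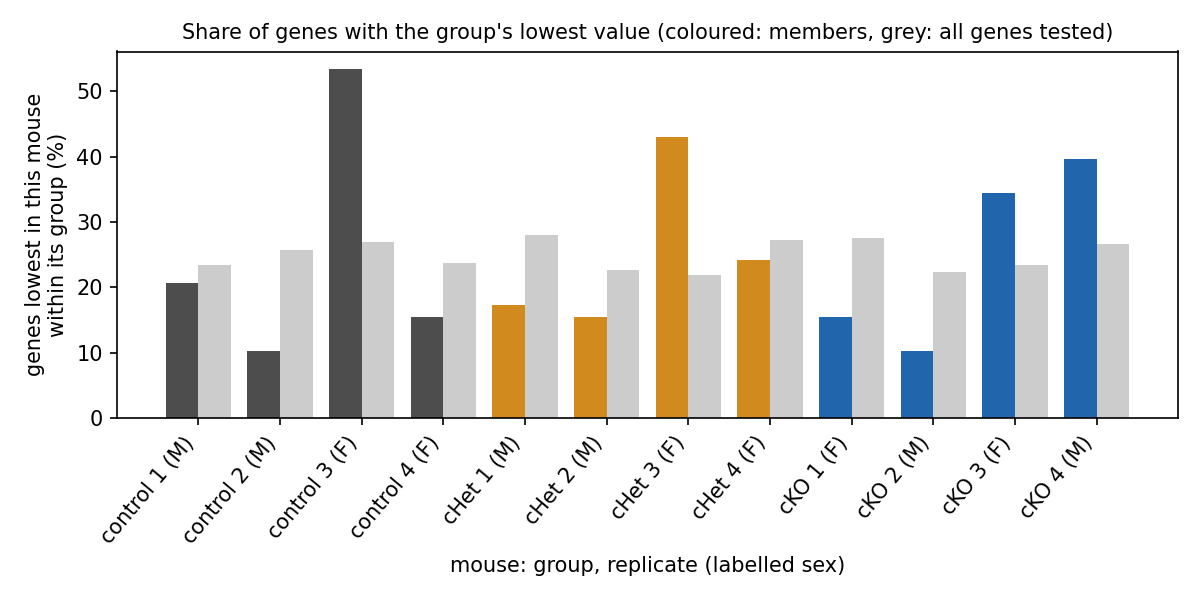
Share of genes (vertical axis, percent) whose lowest value within a group of 4 lies in the given mouse, for the 58 members (coloured) and all genes tested (grey). The bars of control replicate 3 are 53.4% for members and 26.9% for all genes, the widest gap of the 12 mice.

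Labelled sex was balanced over the groups and was compared with genotype in the fit, with and without control replicate 1. With all 12 mice no gene of 16751 was called between the sexes (0% of genes), the Y-linked genes included, and 968, or 5.78%, were at an unadjusted p under 0.05. Without control replicate 1, 11 genes were called, among them Ddx3y, Eif2s3y, Kdm5d and Uty, and no member was. Of the members, 10 were at an unadjusted p under 0.05 with all 12 mice, 17.2%, and 9 of those were higher in mice labelled male. Without that library they were 7, 12.1% beside 5.50% of all genes, 6 of them higher in mice labelled male. The smallest p was that of Dnah7b, with a log2 difference of 0.45 (adjusted p = 0.416) with all mice and 0.50 (adjusted p = 0.332) without that library. Leaving out each mouse in turn moved the members' share between 12.1% and 22.4%, and it was 12.1% without control replicate 1, control replicate 2, control replicate 3 or cHet replicate 2. For the difference between labelled sexes in the effect of cKO against control, 1 of 16751 genes was called with all mice, and no member was. With all mice 7 members were at an unadjusted p under 0.05, beside 3.96% of all genes, all with a lower cKO difference in mice labelled male, among them Rsph9 (-0.81) and Rsph3a (-0.51). Without control replicate 1, control replicate 2 is the only control mouse labelled male, so this fit cannot tell sex from that mouse. Only its differences are given, -0.83 for Rsph9 and -0.45 for Rsph3a.

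Genes of the same machinery that the rule did not choose were read from lists. Of 12 tested genes of ciliary transcription, Rfx4, an RFX factor of the nervous system that astrocytes also express, fell in cKO, from 14.2 ± 1.41 TPM in control to 9.59 ± 1.25 (log2 difference -0.54, adjusted p = 0.00527), and it was lower than in cHet (-0.41, adjusted p = 0.0318). Without control replicate 1 it was lower than in control as well (-0.56, adjusted p = 0.0134). The other 11 were not called. Of 20 genes of dynein preassembly and docking, Dynlrb1, the roadblock chain of cytoplasmic dynein, and Dnal4 rose by 0.14 each on the log2 scale (adjusted p = 0.0161 and 0.0461). None of 13 genes of the nexin-dynein regulatory complex and none of 21 of microtubule inner proteins was called against control. Of 14 genes of the central pair, Nme5, a radial spoke and central apparatus protein, rose from 12.4 ± 2.25 to 16.9 ± 0.733 TPM (0.44, adjusted p = 0.0415). Of 32 genes of intraflagellar transport and the cilium base, Ift20 rose by 0.18 (adjusted p = 0.0433). With equal totals these rises were not called, with adjusted p of 0.241 for Dynlrb1, 0.487 for Dnal4, 0.0754 for Nme5 and 0.316 for Ift20. Without control replicate 1, Dynlrb1 was called (adjusted p = 0.0319), while Dnal4 (0.0978), Nme5 (0.0989) and Ift20 (0.109) were not. Of 22 further ependymal markers, Nnat, which neurons and other cells express as well, fell from 135 ± 3.37 to 103 ± 8.23 TPM (-0.38, adjusted p = 0.00113, and 0.00458 without control replicate 1). Of 6 tested choroid plexus markers Enpp2 was lower (-0.23, adjusted p = 0.0415), which was not called without control replicate 1. No gene of these lists was called in cHet against control, where the single call was outside them.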

How the data were processed

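RNA of the spinal cord of 12 mice was sequenced. The values used are the authors' normalized TPM per gene, a deposited signal on a linear scale. The submitters' processing notes name kallisto 0.44.0, sleuth 0.30.0 and GRCm38, and no step beyond these is given in the sources used here. TPM keeps no depth, which leaves the read depth unknown, without counting intervals. The deposited comparison tables of the authors hold p-values and q-values from likelihood ratio and Wald tests, and an effect score whose log base is not stated and which is not used for size. Comparisons used limma 3.58.1 (R 4.3.3; trend, two-sided, all 12 mice, no covariate) on log2(TPM + 0.5), so folds of low genes are understated, over 16751 genes averaging 0.5 TPM or more, with Benjamini-Hochberg adjustment and calls at an adjusted p under 0.05. The limma step was tested on simulated data. P-values rest on the spread between separate mice. Gene places come from GENCODE M21, motifs were searched in RefSeq windows, and shared words of 31 bases in GENCODE transcripts. Named genes are those singly named, called, highest of a family, with the largest differences or next to the minimum, and called genes of the lists. Results of some list genes are not reported here. Some other genes were named after their values were seen (Cfap97d1, Cfap97d2, Cfap300, Cfap45, Dnah17). The members, lists and tests were chosen with earlier results of these data known. The labelled sex was checked against Y-linked genes, and 1 control library went against its label. Pseudocounts, filters, scalings, covariates and left-out mice were varied.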

Additional observations from a re-analysis of the deposited data

Results flagged for a closer look

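Among the named members, 4 of 96 groups of 4 mice held a value farther from the others than Dixon's 95% limit allows, and chance flags about 1 in 20 such groups. Mia in cKO replicate 1 was the lowest of its group at 21.6 TPM, with the others between 25.1 and 25.6, and it still lay above all control and cHet mice. Dnaic1, an intermediate chain of the outer dynein arms, was the lowest in control replicate 1, whose Y-linked genes go against its sex label, at 5.51 TPM, with the other control mice between 7.43 and 7.76. Tekt4, a tektin, was highest in cHet replicate 4 at 3.01 TPM, with the others between 0.817 and 1.18. Dnah14, a dynein heavy chain, was highest in cKO replicate 4 at 5.46 TPM, with the others between 2.01 and 2.52. Their causes were not tested.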

How the results depend on the processing

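The call of Mia was kept in all 24 alternatives for cKO against control (log2 0.86 to 1.1, adjusted p 0.00109 to 0.00806) and for cKO against cHet (0.71 to 0.88, adjusted p 0.00268 to 0.0246). In cKO against control, members called higher were 2 with labelled sex as a covariate (Cfap206 added), 2 in the Wald test of the authors' deposited table and 1 to 2 when each mouse was left out (2 without cKO replicate 3, Cfap300 added). Members called lower were 2 with equal totals (Dnah7a, Dnaic1), 1 with equal totals without mitochondrial genes (Dnah7a), 1 with labelled sex as a covariate (Dnah7b), 3 with that covariate and without control replicate 1 (Dnah7b, Dnaic1, Cfap97d2), 1 each in the authors' deposited likelihood ratio and Wald tests (Dnah7b) and 0 to 2 when each mouse was left out (Dnaic1 and Cfap97d2 without control replicate 1, Dnah7a without cKO replicate 3). In cKO against cHet, 1 member was lower with labelled sex as a covariate (Dnah7b, also without control replicate 1) and 1 in the authors' deposited Wald test, and members higher were 1 to 2 when each mouse was left out (Cfap70 added without control replicate 3, adjusted p = 0.0487). All genes called there were 708 with the covariate, 623 with it and without control replicate 1, and 657 without control replicate 3.

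Genes called in cKO against control ranged from 779 (without cKO replicate 2) to 1453 when each mouse was left out, with 869 without control replicate 2 and 853 without cKO replicate 4. In cHet against control they were 0 at a minimum of 1 TPM, 2 with no filter, 2 with equal totals, 3 with equal totals without mitochondrial genes and 1 to 3 when each mouse was left out (3 without control replicate 2, 2 without cHet replicate 4). Between mice labelled male and female they ranged from 0 to 11 (11 without control replicate 1, 1 without cKO replicate 1). The balance of calls in cKO against control depended on scaling: 865 higher and 476 lower as deposited, 346 and 1568 with equal totals, 700 and 530 by median-of-ratios and 466 and 795 with equal totals without mitochondrial genes. Uncalled differences that changed sign were Foxj1 in cKO against control with equal totals (-0.023), Ccdc153 in cKO against cHet with equal totals (-0.033), where the median of all genes was -0.07 and -0.03, and, when single mice were left out, Tmem212 in cKO against control (-0.16 without control replicate 3, up to 0.30, and -0.054 without control replicate 1 with labelled sex as a covariate), Ccdc153 in cKO against cHet (-0.071 to 0.13) and Foxj1 in cKO against cHet (-0.046 to 0.035). The causes were not tested. The covariate fit without control replicate 1, whose Y-linked genes go against its sex label, was chosen after seeing the data. No paired analysis was possible because the labels give the groups no shared replicate numbers.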
